A study of Secale cereale x Triticum turgidum subsp. durum with 48 samples.

Results

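Among the probe sets of a wheat microarray that were measured in triticale, 150 were chosen because their signal was higher late in the life of both the flag leaf and the stem. They were taken from 48411 probe sets, those of the 61115 tested whose IDs lack the suffixes _s_at, _x_at and _a_at, which mark less specific designs. Each candidate was ranked by the smallest of 3 differences between group means on the log2 scale, and the top 150 were kept. The differences were flag leaf at stage 75 minus flag leaf at stage 49, flag leaf at stage 85 minus flag leaf at stage 49, and stem at stage 75 minus stem at stage 59. The values of these 5 groups therefore chose the members, and their rise there is a description and not a finding. Differences are tested below in the 11 groups that did not enter the choice, and calls in the other 5 are given as a description.

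The uppermost leaf of a cereal, the flag leaf, feeds the growing grain. After flowering it and the stem age. During this senescence chlorophyll, proteins and lipids are broken down, and nitrogen, minerals and stored sugars are exported through the phloem to the grain. Ageing is an ordered programme in which many genes are switched on, and parts of the same machinery work wherever cells recycle their contents or die, including tissues of the seed.

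The plants were triticale, a cross of rye with durum wheat per the labels, grown with 16 h of light at 18 °C and 8 h of dark at 15 °C. Stages are on the Zadoks scale of cereal growth. Leaf of the cultivar AC Certa was sampled at stage 13 (seedling) and stage 23 (tillering), and its flag leaf at stage 49 (early booting), stage 75 (22 days after anthesis, early senescence) and stage 85 (30 days after anthesis, late senescence). Stem internode of AC Certa, taken between the crown and the second node, was sampled at stages 21, 45, 59 and 75. Embryo with scutellum, endosperm, crease, pericarp and epiderm were dissected from AC Certa grain at the soft dough stage, stage 85. Root and emerged coleoptile (the tube that shields the first leaf as it pushes up) belonged to a second cultivar, AC Alta, 7 days after sowing at stage 7. Flag leaf at stage 49 had 5 arrays, pericarp and epiderm had 2 each, and each of the other 13 groups had 3, which made 48 arrays in 16 groups. Replicates are biological per the labels, which do not tell how many plants each holds, and p-values reflect no more than the spread among these arrays.

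Values are log2 signals processed by the authors with RMA, which brings all arrays to a similar distribution. Array medians lay between 4.87 and 5.03. The 64 reporter probe sets, designed for foreign genes, had a 95th percentile of 5.99, and this value is used as the background level. The number of arrays limits the precision. In whole tissue, fewer cells of a type and less RNA per cell cannot be told apart. RNA was extracted by 3 methods, 1 for leaf, stem, crease and epiderm, 1 for embryo, endosperm and pericarp, and 1 for root and coleoptile. In comparisons of root or coleoptile with leaf, organ, cultivar and extraction cannot be told apart. In seed against leaf, organ and extraction cannot be told apart for embryo, endosperm and pericarp. The labelled tissues could not be checked against marker genes, because only 1273 of the 61115 tested probe sets were paired with a gene, and 19 of these with a symbol other than a locus number.

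Replicates of young leaf stood apart. The mean correlation of an array with the other replicates of its group was lowest, at 0.957, for stage 23 replicate 2. It was next lowest, at 0.959, for replicate 1 of that stage. Counts of members that use young leaf are therefore given with and without stage 23 replicate 2. Levels without replicate 1 are not given. Over the members replicate 1 differed from the other replicates by a median of -1.43. For levels, only the omission that lowers this leaf is thus shown. Counts called against young leaf are also given as a range over single arrays left out in turn.

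By the rule itself, the median difference of the 150 members was 2.16 (4.46-fold) for flag leaf at stage 75, 2.37 (5.16-fold) for flag leaf at stage 85 and 2.57 (5.92-fold) for stem at stage 75, all on the log2 scale. Flag leaf differences ran from 1.56 to 6.79 at stage 75 and from 1.57 to 7.21 at stage 85, and stem differences from 1.55 to 7.06. The stem difference was larger than both leaf differences on 76 members, smaller than both on 49 and between them on 25. A limma fit over all arrays called 150, 147 and 144 of the members higher in these 3 contrasts (Benjamini-Hochberg adjusted p under 0.05 and a log2 difference of at least 1). Over all 61115 probe sets the same call was made on 2.82%, 2.98% and 7.03%, and over the 31268 probe sets above background in the mean of at least 1 group on 5.11%, 5.45% and 12.9%. The members were chosen on these contrasts, so nothing is read from their counts.

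The start of the rise was often too low to measure. In flag leaf at stage 49 the mean of 72 members was at or below background, in stem at stage 59 that of 112, and in both that of 66. In all 3 late groups together, 126 members were above background. For the dim members the differences depend on the background level.

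**Figure D1:**
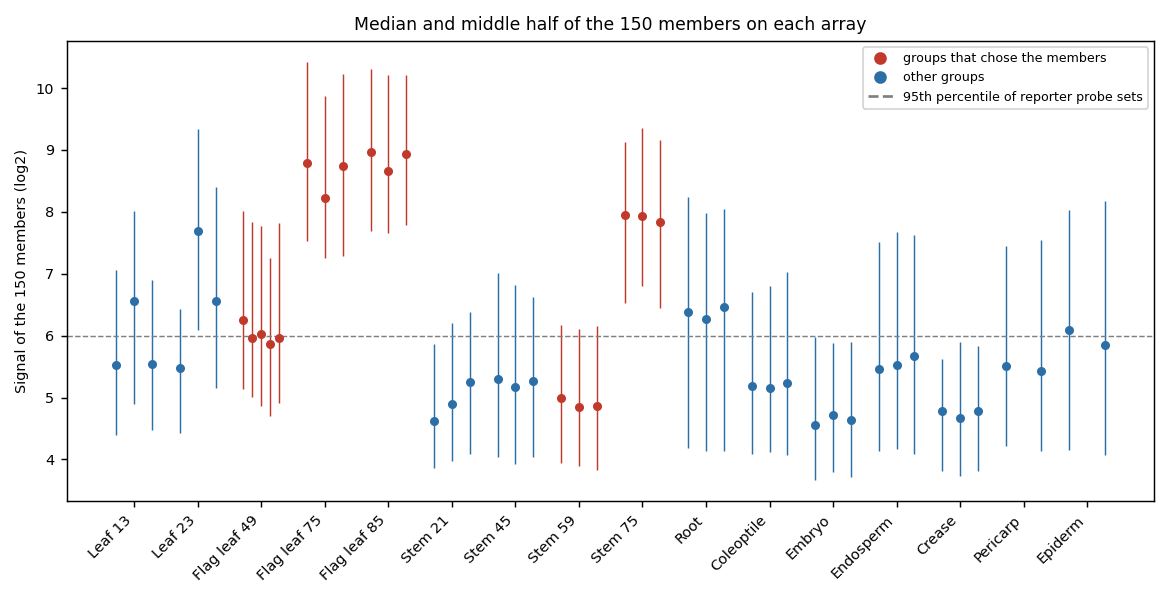
Signal of the 150 members on each of the 48 arrays (log2), with the median as a point and the interquartile range as a bar. Red groups chose the members and blue groups did not, the dashed line is the background level of 5.99, and stage 23 leaf arrays spread from a median of 5.48 to 7.69.

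Most members separated the groups of the rule array by array. These arrays chose the members, so the separation is partly built in and is a description. No share over the candidates is given beside the counts. Every array of flag leaf at stage 75 lay above every array of stage 49 on 146 members, every array of stage 85 did so on 142, and every stem array of stage 75 lay above every one of stage 59 on 145. On 138 members this held in all 3 contrasts, and 12 members had an overlap in at least 1 of them. On 7 members a single stem array of stage 75 was at least 2 above the other stage 75 arrays. The extreme case was Ta.14946.1.S1_at, at rank 24, with 3.33, 10.86 and 3.52 in stem at stage 75 and 3.16, 3.33 and 3.1 at stage 59. Its place among the members rests on stem stage 75 replicate 2.

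The last members inside the list differed little from the first outside it. Ranks 148, 149 and 150 had a smallest difference of 1.57, 1.56 and 1.55. Ranks 151, 152 and 153 had 1.547, 1.546 and 1.541. In all, 452 of the 48411 candidates (0.934%) had a smallest difference of at least 1.

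The first-ranked member was Ta.12195.1.A1_at. It read 5.09, 3.87, 4.37, 4.88 and 4.04 in flag leaf at stage 49, then 8.8, 9.51 and 9.42 at stage 75 and 9.69, 9.04 and 8.93 at stage 85. In stem it read 4.98, 4.83 and 4.65 at stage 59 and 11.25, 11.56 and 9.46 at stage 75. The late arrays of both organs were far above the early ones, with no overlap. Outside the rule, the same probe set was above background in leaf at stage 23, with 7.56, 8.44 and 9.89, and below it at stage 13, with 4.09, 4.33 and 5.29. In stem it read 6.51, 6.2 and 6.66 at stage 45 and 4.38, 4.54 and 4.37 at stage 21, a difference of 2.03 (SE 0.423, limma adjusted p = 0.000218). In root, coleoptile and the seed tissues it read 3.13 to 5.49, below background on every array.

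Other members of the first 10 ranks were at background outside the rule's groups. Ta.26906.1.A1_at, at rank 7, read 7.91, 7.76 and 7.82 in stem at stage 75, 9.08, 8.93 and 8.77 in flag leaf at stage 75 and 9.23, 9.36 and 9.7 at stage 85. Its highest value on any array of the 11 groups outside the rule was 5.56, in crease. Ta.5174.1.S1_at, at rank 8 and annotated as LOC543399, read 10.43, 10.33 and 10.83 in stem at stage 75 against 3.93, 3.53 and 4.01 at stage 59. Its flag leaf values were lower, at 7.82, 6.41 and 6.72 at stage 75 and 7.76, 7.85 and 8.37 at stage 85, and outside the rule it reached 5.35 at most, in leaf at stage 13.

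Other high-ranked members were widely expressed and were raised further. Ta.25543.2.S1_at, at rank 10, read 8.67, 8.39, 7.77, 8.4 and 8.17 in flag leaf at stage 49 and 11.76, 11.45 and 11.93 at stage 85. In stem it went from 8.78, 8.74 and 8.93 at stage 59 to 12.93, 12.7 and 12.65 at stage 75. In crease it was at 4.75, 3.53 and 4.48, below background on every array. Ta.7529.1.A1_at, at rank 5, read 11.98, 12.29 and 11.9 in stem at stage 75, and 10.96, 10.99 and 11.22 in endosperm, but 8.46, 8.18 and 8.19 in embryo. The first 10 ranks thus held members that were dim outside the late groups and members that were bright in seed tissues.

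**Figure D2:**
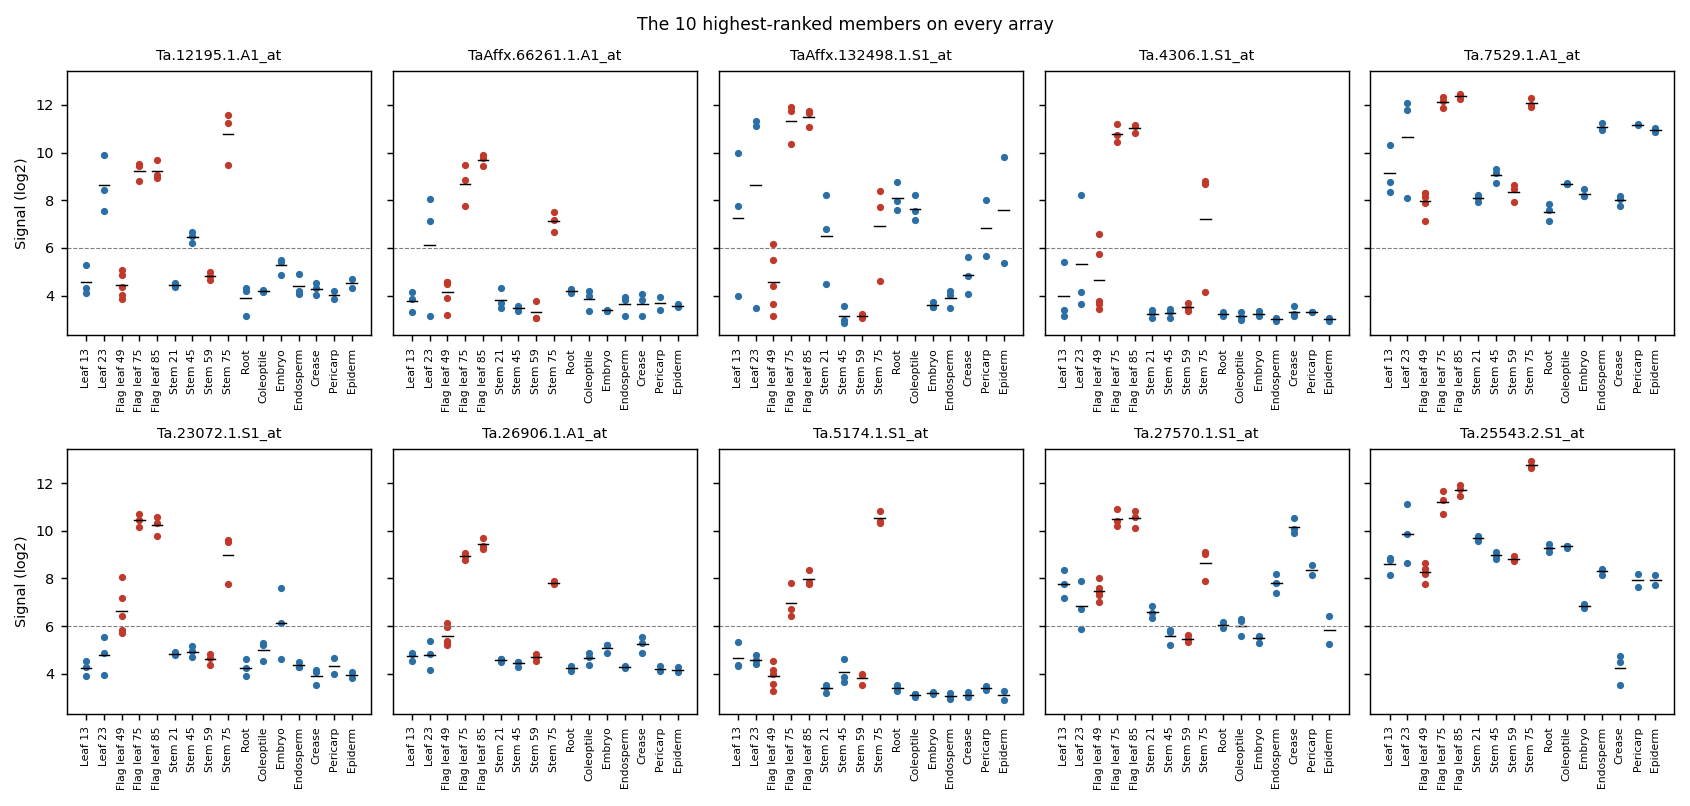
Signal of the 10 highest-ranked members on every array (log2), a panel each, with points for arrays, short lines for group means and the dashed line at the background of 5.99. Red groups chose the members, and outside them Ta.26906.1.A1_at and Ta.5174.1.S1_at stayed below the line on all arrays, whereas Ta.7529.1.A1_at was bright in endosperm, pericarp and epiderm.

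From stage 75 to stage 85 the flag leaf values of the members differed little. The mean was higher at stage 85 on 107 members, with a median difference of 0.17 and a range from -1.23 to 1.3. On 3 members the difference was 1 or more and on 2 it was -1 or less. Both groups entered the rule, so this is a description.

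In stem, the late level was above all earlier means for 148 of the 150 members. Before it there was no steady climb. The mean was higher at stage 45 than at stage 21 on 80 members, higher at stage 59 than at stage 45 on 44, and higher at both steps on 15. On 65 members it went up and then down before the late rise. The rule selects for a low value at stage 59, which bears on the step before it but not on the step from stage 21 to stage 45.

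That first stem step could be tested, since neither stage entered the rule. At stage 45, 40 of the 150 members (26.7%) were called higher than at stage 21 and 5 (3.33%) lower. Over all 61115 probe sets 6.82% were called higher and 5.79% lower, and over the 31268 expressed ones, above background in at least 1 group mean, 12.8% and 10.7%. All 45 called members had no overlap between the groups. How many of all called probe sets had none is not given, so nothing is read from this about the members. The median of the members was 0.04, close to the 0.00 of all probe sets.

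Ta.5251.1.A1_at, at rank 40, had the largest rise of that step among members without overlap. It read 4.55, 4.93 and 5.6 at stage 21 and 9.13, 8.48 and 8.73 at stage 45, a log2 difference of 3.75 (SE 0.324, limma adjusted p = 5.3e-12). It then read 7.0, 7.07 and 6.98 at stage 59 and 12.95, 12.65 and 12.72 at stage 75, so that its course in stem went up, down and up again. TaAffx.12607.1.S1_at, at rank 91, took a like course, with 4.61, 5.45 and 5.81 at stage 21 and 9.04, 8.25 and 9.01 at stage 45, a difference of 3.48 (SE 0.37, limma adjusted p = 8.69e-10).

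A few members fell at the first stem step. Ta.22572.1.S1_at, at rank 127, read 7.58, 7.96 and 8.52 at stage 21 and 3.34, 3.45 and 3.63 at stage 45, a difference of -4.55 (SE 0.789, limma adjusted p = 1.49e-05). Its late stem values were 3.21, 7.22 and 3.65, so its stem rise rests on stage 75 replicate 2. Ta.21325.1.S1_at, at rank 82, read 5.97, 6.24 and 7.78 at stage 21 and 3.82, 3.98 and 3.77 at stage 45, a difference of -2.81 (SE 0.37, limma adjusted p = 9.85e-08), and returned to 7.34, 7.5 and 7.11 at stage 75. The number that fell became 11 without stem stage 21 replicate 1.

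Among the 11 groups outside the rule, the members were most often above background in leaf at stage 23, root and epiderm. Counted by group means, 84 members (56%) were above background in root, 89 (59.3%) in leaf at stage 23 and 74 (49.3%) in epiderm. Without stage 23 replicate 2 the count in that leaf was 72 (48%), below epiderm, and its 3 arrays taken singly had 54, 116 and 88. Leaf at stage 13 also had 72 (48%), with 63, 87 and 60 on its arrays. It was thus not set apart from epiderm, whose arrays had 78 and 70. The lowest counts of these groups were 33 (22%) in crease, 37 (24.7%) in embryo and 39 (26%) in stem at stage 21. Over the 48411 candidates the share above background stayed between 26% and 27.5% in all 16 groups. The median of the members was 6.44 in root, 5.96 in epiderm, 5.58 in endosperm, 5.39 in pericarp, 5.17 in coleoptile, 4.75 in crease and 4.69 in embryo. In young leaf it was 5.91 at stage 13 and 6.42 at stage 23, or 5.89 without stage 23 replicate 2. Array medians were 6.28 to 6.47 in root, 5.86 to 6.09 in epiderm, 5.46 to 5.67 in endosperm, 5.43 to 5.51 in pericarp and 5.16 to 5.24 in coleoptile. Those of crease, 4.68 to 4.78, overlapped those of embryo, 4.56 to 4.72, as those of endosperm overlapped those of pericarp, so these neighbours in the order did not differ beyond their spread.

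Breadth differed widely between members. Of the 11 groups outside the rule, 25 members (16.7%) were above background in none, 65 (43.3%) in 1 to 5, 48 (32%) in 6 to 10 and 12 (8%) in all 11. Without stage 23 replicate 2 these counts were 28, 64, 46 and 12. For the 48411 candidates, many of which were never above background, the shares were 57.5%, 16.4%, 11.8% and 14.3%.

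Of the 125 members above background in at least 1 of these groups, 37 (29.6%) had their highest such mean in root, 28 (22.4%) in leaf at stage 23 and 24 (19.2%) in epiderm. Embryo was highest for 3 (2.4%) and stem at stage 21 for 0. Among the 20592 candidates above background in at least 1 of them the shares were 11.4% for root, 8.35% for leaf at stage 23, 8.47% for epiderm, 17.6% for embryo and 8.82% for stem at stage 21. Without stage 23 replicate 2, leaf at stage 23 was highest for 14 of 122 members (11.5%) and 10.2% of the candidates, root for 38 members, epiderm for 26 and stem at stage 21 for 1.

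**Figure D3:**
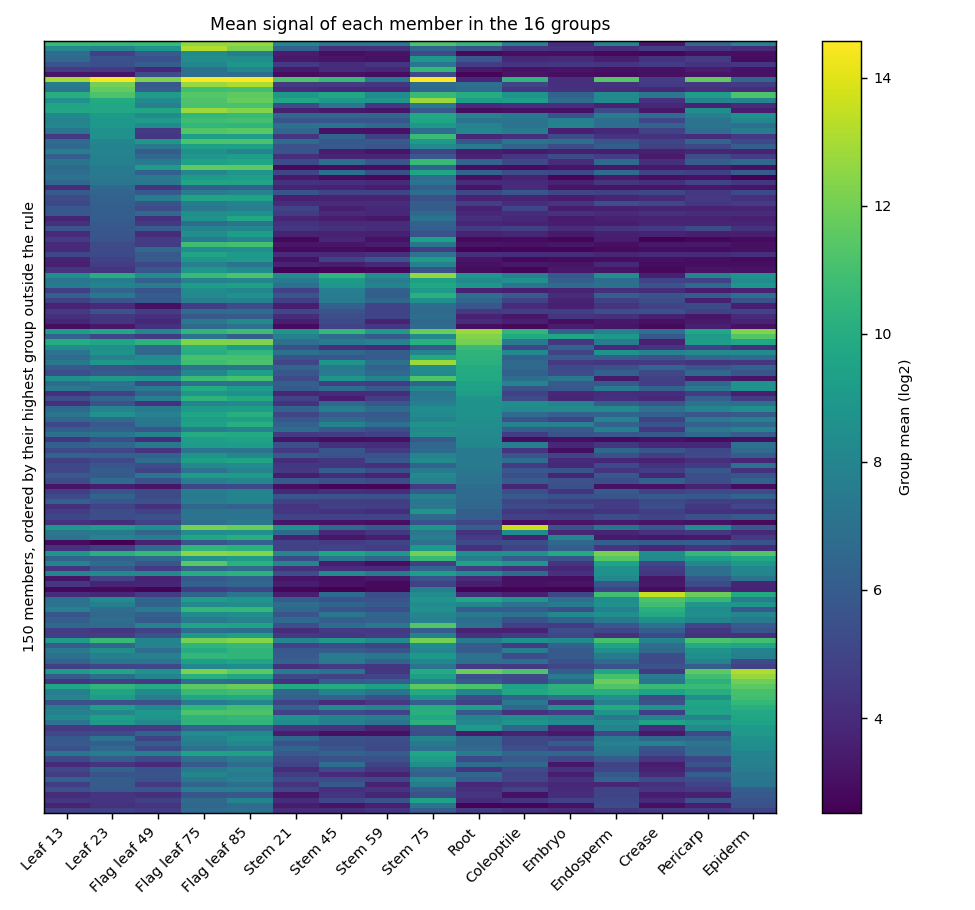
Mean signal (log2, colour) of each of the 150 members (rows) in the 16 groups (columns), with rows ordered by the group outside the rule in which the member was highest. Blocks of rows that are bright in root (37 members) and epiderm (24) stand beside rows that are dark everywhere except in ageing flag leaf and stem.

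Root and coleoptile, which share cultivar, age and extraction, differed on 64 members. In root 56 (37.3%) were higher and 8 (5.33%) lower, against 6.95% and 6.6% of all tested probe sets and 12.4% and 12.4% of the expressed ones. The median of the members was 0.57, with 0.03 for all. Without a share over all called probe sets beside it, the absence of any array overlap on these 64 members is a description.

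Ta.2784.1.A1_at, at rank 92, had the largest rise in root among them. It read 10.73, 10.85 and 10.67 in root and 4.7, 5.17 and 5.49 in coleoptile, a difference of 5.63 (SE 0.789, limma adjusted p = 2.39e-07). TaAffx.21593.1.S1_at, at rank 16, read 8.44, 7.98 and 8.08 in root and 3.08, 2.76 and 2.97 in coleoptile, a difference of 5.23 (SE 1, limma adjusted p = 6.13e-05). The SE comes from the fit over all groups, and this probe set varied between replicates of leaf and stem, where it read 2.7, 6.96 and 3.69 at leaf stage 13 and 7.52, 6.38 and 3.71 at stem stage 75. The highest member in root was Ta.9348.1.S1_at, at rank 36, with 12.76, 12.79 and 12.74, above its values in flag leaf at stage 85 of 11.06, 10.65 and 10.99.

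The largest difference in the other direction belonged to Ta.1404.1.S1_at, at rank 13 and annotated as LOC542853. It read 13.63, 13.59 and 13.6 in coleoptile and 6.0, 6.21 and 6.34 in root, a difference of -7.42 (SE 0.427, limma adjusted p = 9.61e-18). Coleoptile was brighter than the ageing flag leaf at this probe set, where stage 75 arrays read 12.83, 12.24 and 11.2. Ta.28750.1.S1_at, at rank 34, read 10.91, 10.26 and 10.17 in coleoptile and 4.13, 3.41 and 4.13 in root, a difference of -6.56 (SE 0.541, limma adjusted p = 4.96e-13). It was the brightest member in stem, with 14.62, 14.55 and 14.53 at stage 75, near the top of the scale, where signal flattens and differences are compressed.

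Within the grain, most calls in embryo and crease were lower and most calls in epiderm, endosperm and pericarp were higher. In embryo 52 members (34.7%) were lower than the mean of the other 4 tissues and 9 (6%) higher, against 7.26% and 9.13% of all probe sets and 13.9% and 16.5% of the expressed ones. In crease, the furrow with the vascular bundle, 50 (33.3%) were lower and 9 (6%) higher, against 9.53% and 5.38% of all and 18.4% and 9.34% of the expressed. In epiderm, the outermost layer, 51 (34%) were higher and 5 (3.33%) lower, against 6.45% and 5.06% of all and 12.1% and 9.75% of the expressed. In endosperm 25 (16.7%) were higher and 4 (2.67%) lower, against 5.12% and 1.94% of all and 9.74% and 3.75% of the expressed. In pericarp 25 (16.7%) were higher and 6 (4%) lower, against 4.73% and 3.24% of all and 9.03% and 5.92% of the expressed. The 5 comparisons share arrays, so their counts are not independent of each other.

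The median of the members was -0.48 in embryo and -0.47 in crease, 0.06 in endosperm, 0.14 in pericarp and 0.30 in epiderm, where the medians of all probe sets lay between -0.09 and 0.10. In all, 70 members were called lower in embryo or crease, and 32 of them in both. The same counts over all probe sets are not given, and each of these tissues is part of the other's comparison, so nothing is read from them. Without either of its 2 arrays in turn, pericarp had 15 (without replicate 1) and 18 (without replicate 2) members higher, and 4 and 2 lower. Without epiderm replicate 2, epiderm had 2 members lower. Among tissues extracted by the same method, embryo had 54 lower and 7 higher against endosperm and pericarp, and crease had 60 lower and 10 higher against epiderm. Shares over all probe sets are not given for these contrasts, so the members cannot be set against other probe sets there.

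In epiderm the largest rise without overlap was that of Ta.13371.1.S1_at, at rank 17. It read 13.43 and 12.83 in epiderm, 11.91 and 11.28 in pericarp, 9.93, 9.81 and 9.41 in endosperm, 5.93, 5.97 and 6.61 in embryo and 4.34, 4.77 and 4.58 in crease. Its difference from the other tissues was 5.12 in epiderm (SE 0.873, limma adjusted p = 1.14e-05) and -5.59 in crease (SE 0.749, limma adjusted p = 6.31e-08), the most negative there among members without overlap. The order from outer layer to furrow held without overlap between any of these tissues. TaAffx.110629.1.S1_at, at rank 105, read 9.3 and 8.72 in epiderm and 3.14 to 5.5 on the other seed arrays, a difference of 4.76 (SE 0.433, limma adjusted p = 1.9e-11).

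Ta.1549.1.S1_at, at rank 123, went against the common pattern in crease but not in embryo. It read 13.45, 13.58 and 13.54 in crease, 12.15 and 11.51 in pericarp, 10.91, 11.33 and 10.46 in endosperm and 10.35 and 9.38 in epiderm. In embryo it read only 4.83, 5.04 and 5.37. It was higher in crease by 4.10 (SE 0.256, limma adjusted p = 1.15e-16) and lower in embryo, with a difference of -6.45 (SE 0.256, limma adjusted p = 8.28e-23). Its late levels, 6.14, 7.14 and 5.88 in flag leaf at stage 75 and 8.89, 8.03 and 8.05 in stem at stage 75, were below those of the grain tissues other than embryo. Ta.27570.1.S1_at, at rank 9, was also higher in crease, with 10.08, 10.54 and 9.89 against 5.26 to 8.55 on the other seed arrays (difference 3.30, SE 0.287, limma adjusted p = 1.75e-12).

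Other members fell in embryo or crease. Ta.1215.1.S1_at, at rank 131, read 4.42, 3.87 and 4.54 in embryo and 10.91 and 10.17 in epiderm, and its embryo difference was -4.09 (SE 0.336, limma adjusted p = 3.63e-13). Ta.18581.1.S1_at, at rank 31, read 3.48, 3.62 and 3.6 in crease and 5.74 to 9.15 on the other seed arrays, a difference of -4.18 (SE 0.318, limma adjusted p = 3.83e-14). It was nevertheless among the bright members of stem, at 12.91, 12.85 and 12.29 at stage 75.

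Some of the members called higher in embryo or in endosperm are described here. Ta.10768.1.A1_at, at rank 72, read 7.8, 8.09 and 8.18 in embryo and 3.09 to 5.27 elsewhere in the grain, a difference of 4.39 (SE 0.361, limma adjusted p = 3.56e-13). TaAffx.12607.1.S1_at, described above for stem, read 7.03, 7.73 and 7.26 in embryo and at most 5.03 in the other seed tissues (difference 3.63, SE 0.3, limma adjusted p = 4.22e-13). In endosperm, Ta.10238.2.S1_at, at rank 54, read 7.92, 7.91 and 8.6, a difference of 3.34 (SE 0.36, limma adjusted p = 1.35e-09). Ta.4748.1.S1_at, at rank 73, read 11.12, 10.98 and 12.05 there, a difference of 3.17 (SE 0.232, limma adjusted p = 4.63e-14). Both of these were at most 5.7 in embryo, but both were also called higher in epiderm, with means of 7.18 and 9.69 there. The brightest member in embryo was Ta.14887.1.S1_at, with 10.4, 10.32 and 10.16. The brightest in endosperm was Ta.3253.1.S1_at, at rank 120, with 12.26, 11.94 and 12.1.

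The remaining named calls in the grain were smaller or less even. In pericarp, Ta.14946.1.S1_at read 9.35 and 7.59, against 2.95 to 6.11 on the other seed arrays, a difference of 4.71 (SE 1.15, limma adjusted p = 0.00221), and the call was lost without pericarp replicate 1 (limma adjusted p = 0.116). Ta.1404.1.S1_at read 8.53 and 8.49 in pericarp, a difference of 2.43 (SE 0.403, limma adjusted p = 1.13e-05). Ta.14618.1.A1_at was lower in pericarp, with a difference of -1.30 (SE 0.254, limma adjusted p = 0.000141). Against embryo and endosperm alone the difference was -0.69 and the call was lost (limma adjusted p = 0.0619). Ta.9051.1.S1_at was lower in endosperm, with a difference of -1.04 (SE 0.169, limma adjusted p = 6.64e-06), close to the minimum of 1 in size. It missed that minimum at -0.66 against embryo and pericarp alone, at -0.95 with spike centring, at -0.86 without endosperm replicate 3 and at -0.98 without pericarp replicate 1.

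**Figure D4:**
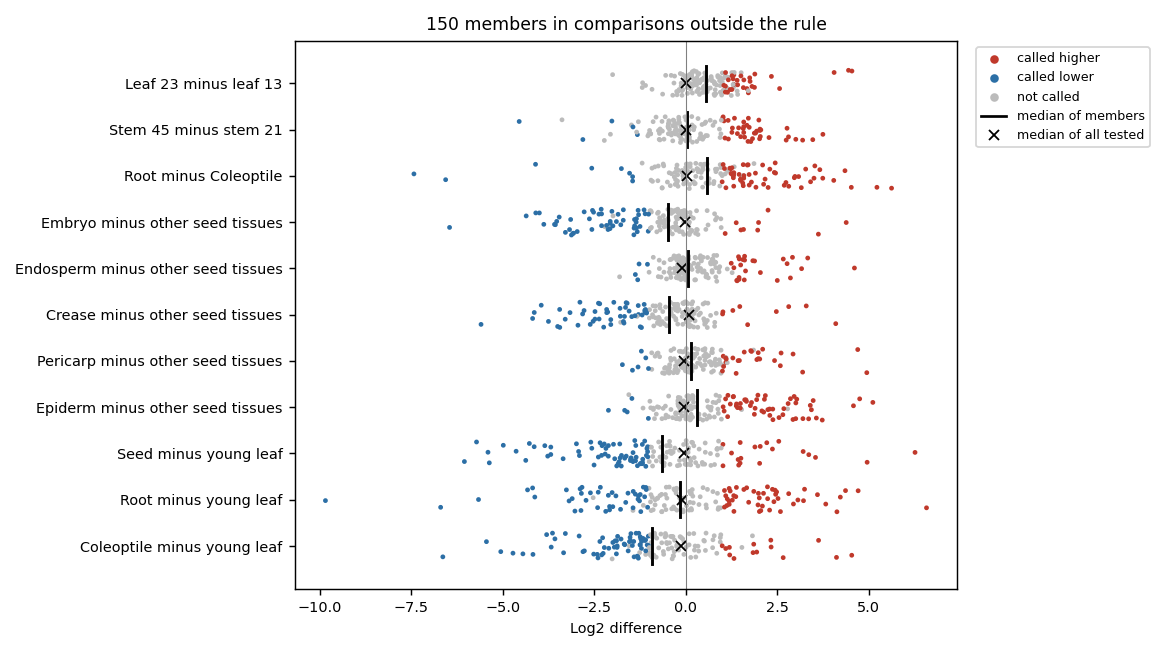
Log2 difference of each of the 150 members (points) in the 11 comparisons that use no array of the rule, with red for members called higher, blue for members called lower, a black line for the median of the members and a cross for the median of all tested probe sets. Embryo, crease, and seed and coleoptile against young leaf have more blue points than red. Epiderm and root against coleoptile have more red than blue. The most negative difference, -9.84, and the most positive, 6.59, are both in root against young leaf.

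Replicates of young leaf differed widely on the members. In leaf at stage 13 the median over the members was 5.53 on replicate 1, 6.56 on replicate 2 and 5.55 on replicate 3. At stage 23 it was 5.48, 7.69 and 6.56. Thus stage 23 replicate 2 came within 1 of the lowest median of flag leaf at stage 75, which was 8.23, and stage 23 replicate 1 was as low as stage 13. The median SD of a member was 0.495 at stage 13 and 1.01 at stage 23, against 0.242 and 0.248 over the 48411 candidates. An SD over 1 was found for 77 members (51.3%) at stage 23 and 37 (24.7%) at stage 13, but for 2.12% and 1.85% of the candidates. Flag leaf at stage 49, which entered the rule, had a median SD of 0.511, above that of leaf at stage 13, and 20 members with an SD over 1, and stem at stage 75 had 0.387 and 21. In the other 9 groups outside the rule the median SD was 0.157 to 0.278, and 0 to 7 members had an SD over 1.

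Replicate 2 was the highest of the 3 arrays for 115 members (76.7%) at stage 23 and for 99 (66%) at stage 13, against 30.9% and 25.6% of the candidates. For 86 members (57.3%), and 10.8% of the candidates, it was highest at both stages. Over the members, stage 23 replicate 2 was higher than the mean of the other replicates by a median of 1.25, and replicate 1 differed by -1.43. For the candidates these medians were -0.04 and 0.05. The array means of the hybridization spikes were 11.34, 10.94 and 11.26 for replicates 1 to 3 of stage 23, and 11.3, 11.09 and 11.23 at stage 13. Replicate 2 thus had the lowest spikes of its group at both stages. The part of this in the order of the replicates was not tested. The count of members called between these stages with spike centring is given at the end.

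A pair of members from one cluster of IDs shows the spread. Ta.13337.1.S1_at, at rank 21, read 5.59, 9.16 and 7.0 at stage 13 and 9.91, 12.47 and 12.73 at stage 23. Ta.13337.2.S1_at, at rank 29, read 5.51, 9.56 and 7.42 at stage 13 and 9.97, 13.34 and 12.82 at stage 23. On replicates 2 and 3 of stage 23 both reached or passed their flag leaf values of stage 75, which were 10.66 to 11.26 and 12.25 to 13.09, and on replicate 1 neither did. Ta.959.1.S1_at, annotated as LOC543317 and at rank 44, read 4.85, 12.14 and 7.55 at stage 13 and 6.32, 13.23 and 4.26 at stage 23. At stage 23 it thus lay below background on replicate 3 and within its flag leaf range of stage 75, 12.5 to 13.77, on replicate 2.

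**Figure D5:**
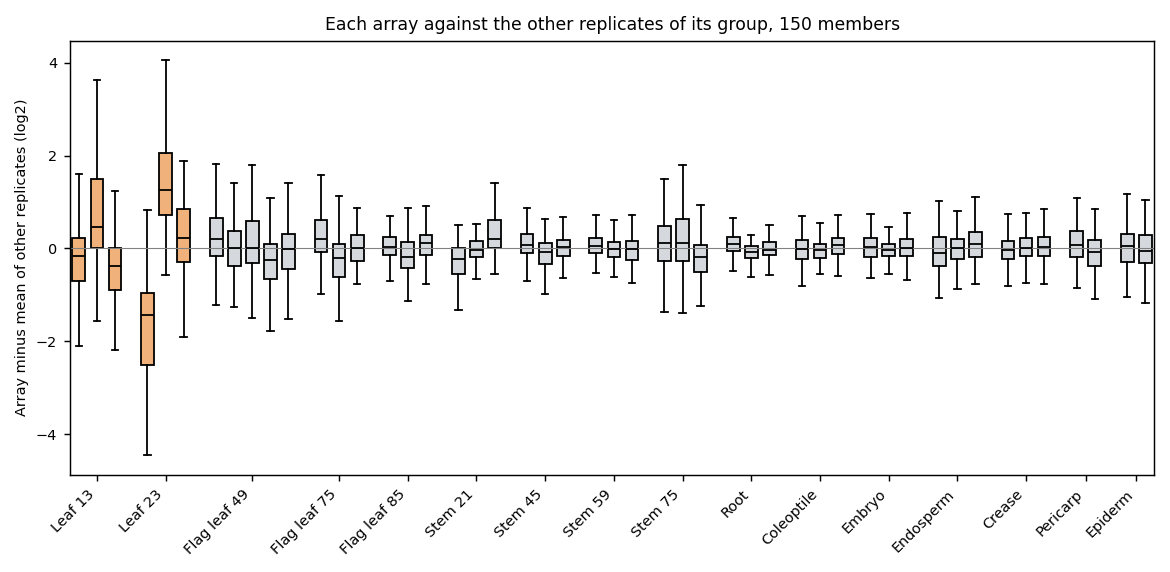
Difference of each array from the mean of the other replicates of its group (log2), as box plots over the 150 members with the median, quartiles and whiskers to 1.5 times the interquartile range, and outliers not drawn. Young leaf arrays are in orange, with medians of -1.43 for stage 23 replicate 1 and 1.25 for replicate 2, while the 3 root arrays lie close to 0.

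Leaf at stage 23 had 30 members (20%) called higher than leaf at stage 13 and 0 called lower, against 0.924% and 1.05% of all tested probe sets and 1.73% and 1.98% of the expressed ones. At an unadjusted limma p under 0.05, 58 members were higher and 4 lower, without a share over all probe sets beside these counts. The median of the members was 0.56, with 0.00 over all. The difference was positive on 125 of the 150. The count rests on single arrays. Omitting replicate 2 of stage 23 left 7, omitting its replicate 1 gave 67, and omitting its replicate 3 gave 16, as did omitting replicate 3 of stage 13. The count of members lower was 2 without replicate 2 of stage 23 and 2 without replicate 3 of stage 13. With only the 6 arrays of these groups in the fit, limma called 0 higher and 0 lower, with 26 higher and 1 lower at an unadjusted p under 0.05. For these counts, too, no share over all probe sets is given. Only 13 of the 30 called members had no overlap between the groups, without a share over all called probe sets beside this count. Ta.13337.2.S1_at and Ta.13337.1.S1_at were the highest of them, with differences of 4.55 (SE 0.721, limma adjusted p = 8.6e-05) and 4.45 (SE 0.697, limma adjusted p = 7.01e-05). Their adjusted p was 0.546 and 0.501 with only these groups fitted.

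Set against young leaf, taken as the mean of stages 13 and 23, most called members were lower in coleoptile and in the seed, while root had calls in both directions. The 3 comparisons share the young leaf arrays. Extraction differed from that of leaf in root, coleoptile, embryo, endosperm and pericarp. In the mean of the 5 seed tissues 64 members (42.7%) were lower and 19 (12.7%) higher, against 8.82% and 12.3% of all probe sets and 16.4% and 23.7% of the expressed ones. In coleoptile 62 (41.3%) were lower and 14 (9.33%) higher, against 5.57% and 9.81% of all and 10.3% and 18.5% of the expressed. In root 42 (28%) were lower and 47 (31.3%) higher, against 8.92% and 14.6% of all and 16.1% and 26.9% of the expressed. Leaving out single arrays in turn gave 52 to 73 lower and 15 to 23 higher in seed. It gave 50 to 81 lower and 11 to 20 higher in coleoptile, and 37 to 53 lower and 39 to 52 higher in root. Without stage 23 replicate 2, the counts were 52 lower and 23 higher in seed, 50 and 20 in coleoptile, and 37 and 52 in root. With arrays centred on the hybridization spikes, they were 42 and 30 in seed, 35 and 24 in coleoptile, and 26 and 62 in root. Shares over all probe sets are given for the main fit only. The counts with arrays left out or centred cannot be set against other probe sets. The median of the members in root, -0.15, turned to 0.67 with this centring, where that of all probe sets was 0.73, and to 0.12 without stage 23 replicate 2. Over single arrays left out in turn, the median of the members in root ran from -0.39 to 0.12.

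Some members were far above young leaf elsewhere. Ta.28171.1.S1_at, at rank 142, read 12.32, 12.34 and 12.27 in root and 9.59, 9.75 and 10.21 in coleoptile, against 4.3 to 7.72 in young leaf, with differences of 6.59 (SE 0.381, limma adjusted p = 5.55e-18) and 4.13 (SE 0.381, limma adjusted p = 1.32e-11). Its late flag leaf values, 6.57, 6.31 and 5.67 at stage 85, were lower than all 3 root arrays. Ta.25492.1.S1_at, at rank 37, read 9.38, 9.17 and 9.22 in root (difference 4.72, SE 0.598, limma adjusted p = 1.18e-08). In coleoptile, Ta.1404.1.S1_at was higher than young leaf by 4.54 (SE 0.37, limma adjusted p = 5e-13). In seed, Ta.1549.1.S1_at was higher by 6.27 (SE 0.193, limma adjusted p = 3.89e-27). Ta.5107.1.A1_at, at rank 110, read 11.78, 11.88 and 11.99 in endosperm and 11.83 and 12.01 in epiderm, against 3.89 to 6.19 in young leaf, and the seed mean was higher by 4.96 (SE 0.216, limma adjusted p = 3.74e-22).

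Other members were lower than young leaf in root, coleoptile or seed. Ta.28750.1.S1_at ranged from 11.98 to 13.85 in leaf of stage 13 and from 14.14 to 14.62 in leaf of stage 23. Its root difference was -9.84 (SE 0.469, limma adjusted p = 1.06e-20), with root arrays below background and leaf arrays near the top of the scale, so that its size is limited at both ends. Ta.23191.1.S1_at, at rank 12, read 9.77, 10.87 and 8.06 at stage 13 and 6.92, 10.59 and 11.58 at stage 23. It was at most 4.62 on every seed array and at most 4.33 in coleoptile, with differences of -5.71 in seed (SE 0.609, limma adjusted p = 1.35e-10) and -5.44 in coleoptile (SE 0.867, limma adjusted p = 2.16e-06). Ta.13337.1.S1_at was lower in seed, with -5.40 (SE 0.424, limma adjusted p = 3.4e-14). Ta.14946.1.S1_at was lower in root, with -6.69 (SE 1.06, limma adjusted p = 1.09e-06), and in coleoptile, with -6.63 (SE 1.06, limma adjusted p = 2.24e-06), and its young leaf values ran from 6.4 to 12.31. Each of these single differences from young leaf kept its call without stage 23 replicate 2.

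The IDs themselves say something of the members. Of the 150, 52 (34.7%) carry the prefix TaAffx, against 55.3% of the 48411 candidates, and the others the prefix Ta. Members came from 148 clusters by the number in their IDs, and 2 clusters gave 2 members each, at ranks 21 and 29 and at ranks 54 and 88. Probe sets of a cluster may bind the same transcripts, so those pairs are not independent. The clusters of the members held 50 more probe sets that the suffix rule left out, in 33 clusters. Of these, 43 had a smallest difference above 0, 25 reached that of rank 150, and their median was 1.53. A further 44 candidates of these clusters were not members. Of these, 24 had a smallest difference above 0, and their median was 0.02. Over all 48411 candidates 21.4% had one above 0. These differences use the arrays of the rule, and the clusters were chosen through their members. The counts are therefore a description, and nothing is read from them about the rise.

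A gene was paired with 5 members, each by a locus number without a function. Beside LOC543399, LOC542853 and LOC543317, described above, these were LOC542830 and LOC543298. LOC542830 (Ta.231.1.S1_at, rank 32) read 8.82, 9.09 and 8.59 in stem at stage 75, and was highest in crease, with 11.15, 11.26 and 11.27. LOC543298 (Ta.23743.1.S1_at, rank 134) read 9.94, 9.65 and 9.65 in stem at stage 75, 9.05, 8.79 and 8.84 in root and 9.03 and 8.72 in epiderm. Both were thus above background in root as well as in ageing stem.

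Which probe sets are counted as members depended little on single arrays. Without each of the 17 arrays of the rule in turn, 137 to 147 of the 150 stayed among the first 150.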

How the data were processed

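RNA of each sample was hybridized to an Affymetrix Wheat Genome array after biotin labelling in a pair of amplification cycles, per the labels' protocols. The authors deposited log2 values per probe set, processed with RMA per the submitters' processing notes. The sources used here do not give software, background step or log base. Base 2 was taken because RMA gives it and the table runs from 1.92 to 15. The 111 AFFX and 64 reporter probe sets were left out of tests. The remaining 61115 were fitted in limma 3.58.1 (R 4.3.3) with a mean per group over all 48 arrays (32 residual and 5.59 prior degrees of freedom) and called at a two-sided Benjamini-Hochberg adjusted p under 0.05 over all 61115 and a log2 difference of at least 1. The fit was tested on simulated data first. Members, lists, comparisons and tests were chosen with earlier results of these data known. Described singly were the 10 first-ranked members, those around rank 150, for each comparison up to 2 called rises and 2 called falls without overlap between arrays, and the highest member of each group outside the rule. LOC543317, LOC542830, LOC543298 and overlaps in the rule's groups were added after their values were seen. The 12 gene lists and the marker lists could not be run, because the gene table names 5 members, by locus number. Replicate numbers were not taken as pairs: of 27 pairs of groups, 1 had every same-number correlation of deviations over 0.1 (range -0.129 to 0.227). Alternatives were quantile normalization, centring on 18 spike probe sets, leaving out the dimmest 25%, fitting only the groups compared, a replicate block, the same extraction only, and leaving out each array. Levels without stage 23 leaf replicate 2 were added after seeing the data.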

Additional observations from a re-analysis of the deposited data

Results flagged for a closer look

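The 5 arrays of flag leaf at stage 49 form the one group of 4 to 10 arrays, and 39 sets of values (the 38 members described singly and the median over all members) were tested there for an array far from the others with Dixon's test. This group entered the choice of the members, so the values are a description. The gap exceeded 0.71 of the range in 3 of them, where chance flags about 1 in 20. Replicate 1 read 9.21 at Ta.13337.1.S1_at, against 4.45 to 5.82 on the other arrays. Replicate 3 read 8.06 at Ta.1404.1.S1_at, against 8.62 to 8.69, and 11.33 at Ta.3253.1.S1_at, against 10.35 to 10.56.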

How the results depend on the processing

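Quantile normalization and leaving out the dimmest probe sets moved no member count by over 1.5 times. Spike centring shifted the median of all probe sets from -0.04 to 0.42 for seed against young leaf, from -0.09 to 0.73 for root and from -0.11 to 0.37 for coleoptile against young leaf, and from -0.02 to 0.39 for embryo. It gave 16 members higher at leaf stage 23 than 13, 15 higher in embryo, 30 higher and 42 lower in seed, 26 lower in root, and 24 higher and 35 lower in coleoptile against young leaf, and it left 117 of the 150 in the list. With only the groups compared, 0 were higher at leaf stage 23 and 11 lower at stem stage 45. Crease as the only comparator gave 10 lower in epiderm. Leaving out single arrays gave 7 to 67 higher and 0 to 2 lower at leaf stage 23, 4 to 11 lower at stem stage 45, 15 to 26 higher and 2 to 6 lower in pericarp, 2 to 6 lower in epiderm, and 137 to 147 members kept. The cause was not tested. No shares over all probe sets are given for the counts under these alternatives, so they are not set against other probe sets. The median of the members for root against young leaf, -0.15, became 0.67 with spike centring and 0.12 without stage 23 replicate 2. The replicate block changed no count of members by over 1.5 times, with 30 members higher at leaf stage 23 and 52 higher in epiderm. Of 38 single differences, 33 stayed called under every alternative run, 8 of 626 values lost the call, and 0 reversed.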
